A study of Homo sapiens with 6 samples.

Results

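The genes described here encode the components of the RAS-RAF-MAPK and PI3K-mTOR signalling pathways: adaptors, GTPases, kinases, lipid kinase subunits and their direct inhibitors. Of 55 listed genes, 42 were measured, out of 10598 genes measured in all. A gene counted as measured when at least 1 of its probes had a detection p-value under 0.01 on at least 3 of the 6 arrays, and its brightest such probe stood for it. For 7 listed genes (NRAS, RASA1, BRAF, MAP2K7, MAPK14, PIK3CA and PIK3R2) the annotation used here named no probe, and they were not analysed here. The named probes of 6 others (KSR1, MAP2K6, PIK3R3, AKT2, PRKAA2 and RICTOR) were too dim. MAP2K6 was detected on 2 sorafenib arrays and no control array, PIK3R3 on no sorafenib array and 2 control arrays, and the probes of the other 4 on no array.

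The cells were Hep3B, an established human hepatocellular carcinoma line, profiled on Illumina expression BeadChips. One group of 3 samples received sorafenib for 24 h at a dose stated as 3 mM, and the other group of 3 received the solvent DMSO for 24 h (control); doses in culture are usually micromolar, and the data offer no check of the stated unit. Sorafenib is a kinase inhibitor directed at RAF and receptor tyrosine kinases, and both groups were otherwise unmodified cells of the same line, with no inhibitor of protein disulfide isomerase according to their labels. The labels give each sample a replicate number but do not state that cultures were separate, so the p-values reflect variation among these 6 samples, possibly technical.

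In the RAS pathway, adaptor proteins bring exchange factors to activated receptors, RAS switches to its GTP form and RAF, MEK and ERK kinases then activate each other in turn. The stress branches use parallel MAP2Ks to activate JNK and p38 kinases. In the PI3K pathway, insulin receptor substrates recruit the lipid kinase PI3K, whose product activates PDK1 and AKT, and AKT relieves the brake that the TSC complex places on RHEB, the GTPase that switches on mTOR complex 1. RAG GTPases carry the amino acid signal to that complex, and AMPK, switched on by LKB1, opposes it when energy is short. Activity in these pathways is set mostly by phosphorylation and GTP loading, which mRNA arrays do not measure.

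An array detected 34.3% to 36.7% of its probes, with a raw median intensity of 106 to 117. Over the tested probes, correlations between arrays of the same group were 0.992 to 0.997, and those between a sorafenib and a control array 0.977 to 0.981. All 8 of the hepatocyte markers with a probe (ALB, AFP, APOA1, APOB, TTR, SERPINA1, FGB and TF) were detected on all 6 arrays. The endothelial markers PECAM1, CDH5, KDR and VWF, the leukocyte markers PTPRC and CD3E and the fibroblast markers COL1A1, COL1A2, COL3A1 and DCN were detected on none. LUM, CD14, CD68 and HLA-DRA were detected on all 6 arrays, and PDGFRB on no sorafenib array and all 3 control arrays. Of these, LUM fell by 0.59 on the log2 scale, CD14 rose by 0.43 and PDGFRB was lower; their part in the results below was not tested.

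A minority of these genes was called different with sorafenib, and no measured difference reached 2-fold. Fits over the 6 arrays with limma called 12 of the 42 members (28.6%), 6 higher and 6 lower, at a Benjamini-Hochberg adjusted p under 0.05. Over all measured genes 36.7% were called, 19.7% higher and 17.0% lower, so the share among the signalling genes was no higher than the background. At 2-fold or more, 2.78% of all genes were called. The median absolute log2 difference was 0.14 over the members and 0.20 over all genes, and the members' differences ran from -0.63 to 0.63. In 19 members (45.2%) the 3 sorafenib and 3 control values did not overlap, against 53.5% of all genes. All values below are normalized log2 intensities, differences are sorafenib minus control on the log2 scale, errors of differences are limma's standard errors, and there were 3 arrays per group.

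**Figure D1:**
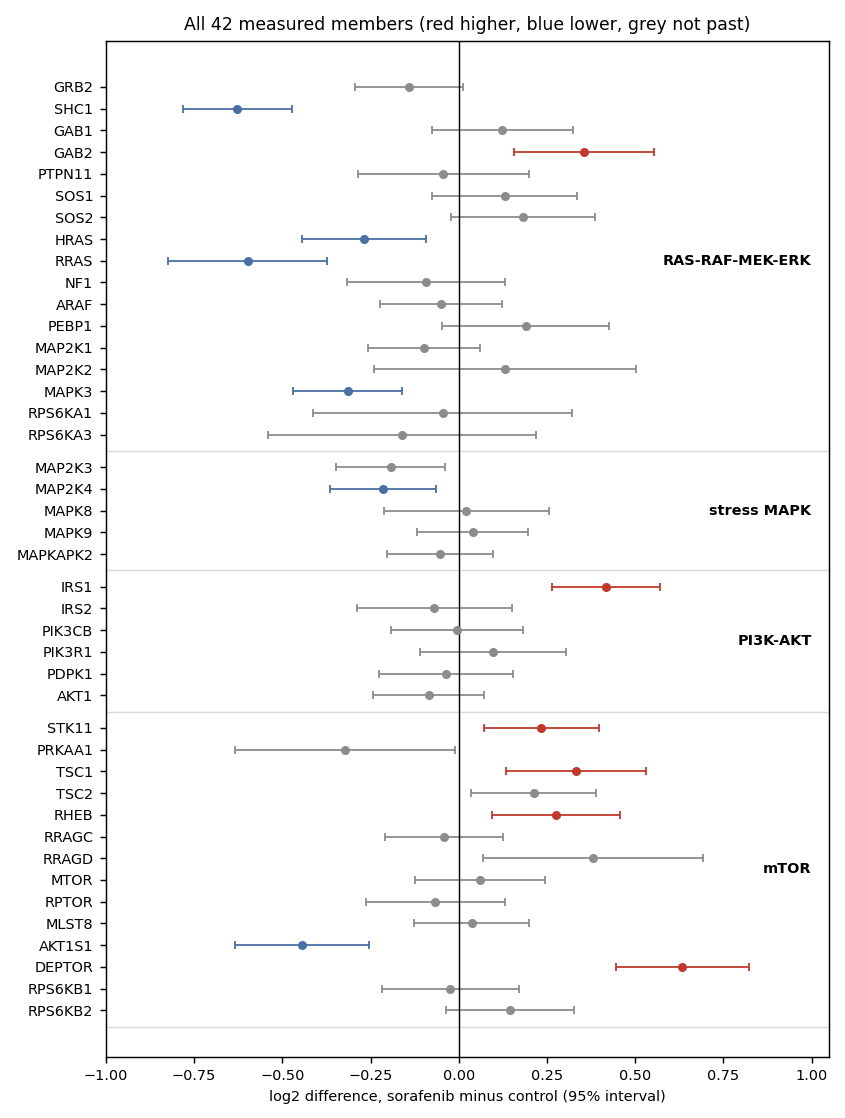
Log2 difference (sorafenib minus control, horizontal axis) of each of the 42 measured members with its 95% interval, grouped by branch. The 6 genes called higher are red, the 6 called lower are blue and the 30 not called are grey; all points lie between -0.63 and 0.63.

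Counts by branch are given as a description. In the RAS-RAF-MEK-ERK branch 1 of 17 measured genes rose and 4 fell, with a median difference of -0.05. In the stress MAPK branch 1 of 5 fell and none rose (median -0.05). In the PI3K-AKT branch 1 of 6 rose and none fell (median -0.02). In the mTOR branch 4 of 14 rose and 1 fell (median 0.10), a split that became 1 higher and 1 lower without the filter on dim probes, without sorafenib replicate 1, without sorafenib replicate 2 and without control replicate 1. These counts stand beside 19.7% of all genes higher and 17.0% lower. The median over all genes was -0.00, and differences between branches were not tested. Replacing quantile normalization by median centring over all probes moved the split of called members to 6 higher and 2 lower. Under that scaling the all-gene median was 0.07 and 69.5% of all called probes were higher, against 52.5% in the analysis reported.

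Among receptor adaptors and exchange factors, SHC1 fell and GAB2 rose. SHC1 encodes the adaptor that docks on phosphorylated receptors and binds GRB2. Its values were 11.65, 11.68 and 11.69 on the sorafenib arrays, against 12.30, 12.23 and 12.36 on the control arrays. The sorafenib values were tightly grouped and all below every control value. The fall was 1.54-fold (log2 -0.63 ± 0.07, limma adjusted p = 0.000694), the deepest of any member, and a second, dimmer SHC1 probe fell by 0.83 on the log2 scale (adjusted p = 0.00190).

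GAB2, a docking protein that binds GRB2, SHP2 and PI3K, had values of 8.92, 8.80 and 9.03 with sorafenib and 8.63, 8.47 and 8.58 in controls. No sorafenib value lay within the control range, and the rise was 1.28-fold (0.35 ± 0.08, limma adjusted p = 0.0172). Without sorafenib replicate 1 or without control replicate 2 it missed the threshold (adjusted p = 0.0538 and 0.0534). Its relative GAB1 differed by 0.12 ± 0.08 and was detected on 3 of 3 sorafenib arrays and 1 of 3 control arrays.

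GRB2, the adaptor that links receptors and SHC1 to the exchange factor SOS, gave unequal answers on its 2 probes. On the brighter probe its values were 9.63, 9.52 and 9.62 with sorafenib, against 9.75, 9.73 and 9.70 in controls (-0.14 ± 0.06, limma adjusted p = 0.140). On the dimmer probe they were 8.12, 8.11 and 8.15 with sorafenib and 8.71, 8.54 and 8.85 in controls (-0.57 ± 0.09, adjusted p = 0.00352). The groups were separate on both probes, with sorafenib lower, and the size of the difference depended on the probe.

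The exchange factors SOS1 and SOS2, which load RAS with GTP, differed by 0.13 ± 0.09 and 0.18 ± 0.09 without passing. PTPN11, which encodes the phosphatase SHP2, differed by -0.04 ± 0.10, with values of 12.50, 12.35 and 12.55 with sorafenib and 12.43, 12.70 and 12.41 in controls. Its groups overlapped.

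Of the RAS GTPases, RRAS and HRAS were measured and both fell. RRAS, a RAS relative linked to integrin-dependent adhesion, had values of 9.24, 9.13 and 9.32 with sorafenib, against 9.93, 9.66 and 9.89 in controls. Every sorafenib value was below every control value, and the fall was 1.51-fold (-0.60 ± 0.10, limma adjusted p = 0.00362). HRAS, one of the classical RAS genes, had values of 8.25, 8.32 and 8.46 with sorafenib and 8.62, 8.61 and 8.61 in controls. The control values were almost identical and the sorafenib values spread below them.

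The fall of HRAS was 1.204-fold (-0.27 ± 0.07, limma adjusted p = 0.0304) and was the less stable of the pair. It kept its call without sorafenib replicate 3 (adjusted p = 0.0182) and lost it when any of the other 5 arrays was left out: without sorafenib replicates 1 and 2 (0.101 and 0.0849) and without control replicates 1, 2 and 3 (0.0872, 0.0709 and 0.0674). It was also lost with median centring over all probes (-0.17, adjusted p = 0.301). NF1, the neurofibromin gene whose product returns RAS to its GDP form, differed by -0.09 ± 0.09.

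At the level of RAF, the direct target class of the drug, nothing measured passed. ARAF had values of 10.10, 10.10 and 10.27 with sorafenib, against 10.22, 10.18 and 10.21 in controls. Its sorafenib values bracketed those of the controls, and the difference was -0.05 ± 0.07 with a 95% interval of -0.22 to 0.12. PEBP1, which encodes the RAF kinase inhibitor protein, had values of 12.04, 12.07 and 12.37 with sorafenib and 11.94, 11.97 and 12.01 in controls. Its groups did not overlap, but sorafenib replicate 3 stood apart from the other 2 sorafenib arrays, and the difference of 0.19 ± 0.10 did not pass (limma adjusted p = 0.187).

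Below RAF, the ERK1 gene fell while the MEK genes did not pass. MAPK3, which encodes ERK1, had values of 10.53, 10.58 and 10.58 with sorafenib, against 10.81, 10.92 and 10.91 in controls. The groups were separate by more than the spread within either, and the fall was 1.24-fold (-0.31 ± 0.07, limma adjusted p = 0.0106). A second MAPK3 probe differed by -0.26 ± 0.10 without passing (adjusted p = 0.0738), and the call on the brightest probe was lost with median centring over all probes (-0.23, adjusted p = 0.168).

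MAP2K1, which encodes MEK1, had values of 11.17, 11.06 and 11.19 with sorafenib and 11.26, 11.22 and 11.24 in controls (-0.10 ± 0.07). The groups just missed each other, with sorafenib lower. MAP2K2 (MEK2) was noisier, with values of 10.79, 11.00 and 11.14 with sorafenib and 10.84, 10.57 and 11.14 in controls, and differed by 0.13 ± 0.16. The RSK kinases RPS6KA1 and RPS6KA3, which ERK activates, differed by -0.05 ± 0.16 and -0.16 ± 0.16, with overlapping groups. Their intervals, -0.41 to 0.32 and -0.54 to 0.22, were among the widest of the members.

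**Figure D2:**
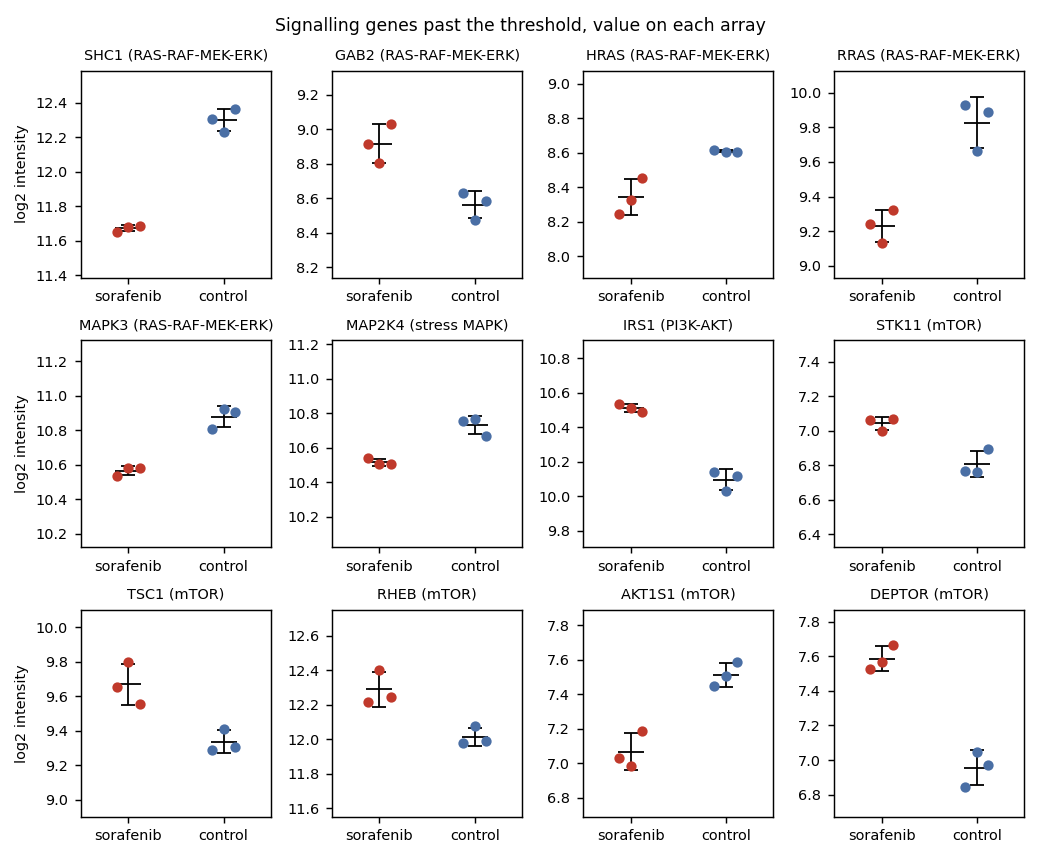
Normalized log2 intensity (vertical axis, each panel spanning the same width of 1.2) of the 12 called members on the 3 sorafenib arrays (red, left) and the 3 control arrays (blue, right), with the mean and SD in black. In every panel the groups are separate; the means lie furthest apart for DEPTOR (0.63), SHC1 (-0.63) and RRAS (-0.60).

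Among the listed members of the stress MAPK branch, the 2 measured MAP2K genes were lower on every sorafenib array than on any control array. Among all genes, 53.5% had groups that did not overlap. The groups overlapped for the members MAPK8, MAPK9 and MAPKAPK2, and the p38 gene MAPK14 had no named probe. Of 18 other measured genes of this branch outside the list, 2 rose and 3 fell. The risen were MAP2K5, by 0.67 ± 0.07 (limma adjusted p = 0.000667), and the p38 gene MAPK12, by 0.35 ± 0.08 (adjusted p = 0.0131). The fallen were MAP3K1, MAP3K11 and MAP3K20, which differed by -0.35, -0.30 and -0.31. The p38 genes MAPK11, detected on 1 control array, and MAPK13 differed by 0.36 ± 0.20 and 0.06 ± 0.09 without passing. MAP2K4, which encodes an activator of JNK and p38, had values of 10.54, 10.50 and 10.50 with sorafenib, against 10.76, 10.77 and 10.67 in controls. It fell 1.16-fold (-0.22 ± 0.06, limma adjusted p = 0.0373), and a second probe fell by 0.33 on the log2 scale (adjusted p = 0.0448). The call passed without control replicate 3 (adjusted p = 0.0448) and was lost without control replicates 1 and 2 (0.116 and 0.0960), without sorafenib replicates 1, 2 and 3 (0.0844, 0.0964 and 0.0762) and with median centring over all probes (-0.13, adjusted p = 0.436).

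MAP2K3, an activator of p38, had values of 10.47, 10.48 and 10.53 with sorafenib and 10.62, 10.74 and 10.70 in controls. The groups did not overlap, and the difference of -0.19 ± 0.07 narrowly missed the threshold (limma adjusted p = 0.0589). The JNK genes MAPK8 and MAPK9 differed by 0.02 ± 0.10 and 0.04 ± 0.07, and MAPKAPK2, a kinase that p38 activates, by -0.05 ± 0.06. For MAPKAPK2 the 95% interval was -0.20 to 0.10, the narrowest of the members that did not pass in this branch.

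In the PI3K-AKT branch IRS1 was the only measured member that was called. IRS1 and IRS2 encode the substrates through which insulin and IGF receptors engage PI3K. IRS1 had values of 10.54, 10.52 and 10.49 with sorafenib, against 10.14, 10.03 and 10.12 in controls. All sorafenib values were well above all control values, and the rise was 1.33-fold (0.42 ± 0.06, limma adjusted p = 0.00338). IRS2 had values of 10.69, 10.58 and 10.44 with sorafenib and 10.59, 10.56 and 10.77 in controls, which overlapped, and differed by -0.07 ± 0.09 (95% interval -0.29 to 0.15).

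The 95% intervals of IRS1 (0.26 to 0.57) and IRS2 did not overlap, although the difference between the 2 genes was not itself tested. The catalytic subunit gene PIK3CB differed by -0.0047 ± 0.08, and PIK3R1, which encodes the main regulatory subunits, by 0.10 ± 0.09. PDPK1, the gene of the kinase PDK1, differed by -0.04 ± 0.08. AKT1 had values of 11.32, 11.29 and 11.38 with sorafenib and 11.47, 11.42 and 11.36 in controls, and differed by -0.09 ± 0.07 (95% interval -0.24 to 0.07). A second bright AKT1 probe differed by -0.03, and the dimmest, close to the detection limit, by 0.18, both without passing.

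The mTOR branch held the largest rise of any member and changes in the mRNA of proteins that restrain the kinase. DEPTOR encodes an inhibitor that binds mTOR in both of its complexes. Its values were 7.53, 7.57 and 7.67 with sorafenib, against 6.84, 7.04 and 6.97 in controls. The groups lay far apart relative to the spread within each, and the rise was 1.55-fold (0.63 ± 0.08, limma adjusted p = 0.00142). Its size depended on the background correction, being 0.42 without it, with the call kept. AKT1S1 encodes PRAS40, an inhibitor of mTOR complex 1 that AKT phosphorylates. Its values were 7.03, 6.98 and 7.19 with sorafenib and 7.45, 7.51 and 7.58 in controls.

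The fall of AKT1S1 was 1.36-fold (-0.44 ± 0.08, limma adjusted p = 0.00613), so the mRNAs of these inhibitors of mTOR went in opposite directions. AKT1S1 missed the threshold with median centring over all probes (-0.33, adjusted p = 0.0659), and differed by -0.29 without background correction, with the call kept. MTOR itself had values of 10.61, 10.58 and 10.62 with sorafenib, against 10.56, 10.41 and 10.64 in controls. Its groups overlapped and the difference was 0.06 ± 0.08, with a 95% interval of -0.12 to 0.25. RPTOR, the defining subunit of complex 1, differed by -0.07 ± 0.08, and MLST8, shared by both complexes, by 0.04 ± 0.07.

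TSC1 and RHEB, which encode a subunit of the TSC complex and the GTPase that it switches off, both rose. TSC1 had values of 9.65, 9.80 and 9.55 with sorafenib and 9.29, 9.41 and 9.31 in controls, a 1.26-fold rise (0.33 ± 0.08, limma adjusted p = 0.0214). Of its other probes, the brighter rose by 0.27 (adjusted p = 0.0285) and the dimmest differed by 0.11. RHEB had values of 12.22, 12.40 and 12.25 with sorafenib, against 11.98, 12.07 and 11.99 in controls, a 1.21-fold rise (0.28 ± 0.08, adjusted p = 0.0304). TSC2, the GTPase-activating subunit, had values of 8.42, 8.38 and 8.39 with sorafenib and 8.27, 8.06 and 8.22 in controls; its groups were separate too, and its difference of 0.21 ± 0.08 did not pass (adjusted p = 0.0682).

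TSC1 and RHEB each kept their call without sorafenib replicate 3 or without control replicate 2 and lost it in the other 4 fits without 1 array. For TSC1 the adjusted p was 0.0595 and 0.0625 without sorafenib replicates 1 and 2, and 0.0734 and 0.0583 without control replicates 1 and 3. For RHEB it was 0.0506 and 0.0873 without sorafenib replicates 1 and 2, and 0.0966 and 0.0760 without control replicates 1 and 3. RHEB was also lost under centring on all probes (0.28, adjusted p = 0.0789) and on the tested probes (0.20, adjusted p = 0.101), and without the dim-probe filter TSC1 and RHEB were both lost (0.0577 and 0.0824).

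STK11, which encodes the AMPK-activating kinase LKB1, had values of 7.06, 6.997 and 7.07 with sorafenib, against 6.77, 6.76 and 6.89 in controls. The rise was 1.18-fold (0.23 ± 0.07, limma adjusted p = 0.0371), the smallest of the rises. It passed without control replicate 3 (adjusted p = 0.0351) and was lost without control replicates 1 and 2 (0.118 and 0.0983) and without sorafenib replicates 1, 2 and 3 (0.107, 0.0649 and 0.0821). It was also lost without background correction and with the deposited log2 values (0.14, adjusted p = 0.0878 each), at an offset of 50 (0.0561), without the dim-probe filter (0.102) and with trend and robust eBayes (0.145). Centring on all probes gave a larger difference, 0.36, which passed. PRKAA1, a catalytic subunit gene of AMPK, was lower on both of its probes. On the brighter it had values of 10.57, 10.45 and 10.53 with sorafenib and 10.74, 11.14 and 10.63 in controls, where control replicate 2 stood high, and the difference of -0.32 ± 0.13 did not pass (adjusted p = 0.101).

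The dimmer PRKAA1 probe, with values of 9.07, 9.17 and 9.03 with sorafenib and 9.30, 9.42 and 9.30 in controls, passed (-0.25 ± 0.07, limma adjusted p = 0.0379). Outside the list, the AMPK subunit gene PRKAB2 rose 1.75-fold (0.81 ± 0.10, adjusted p = 0.00111). The subunit genes PRKAB1, PRKAG1 and PRKAG2 differed by 0.15, 0.09 and 0.10 without passing. RRAGC and RRAGD encode partners of RAGA and RAGB in the amino acid sensing GTPase pair. RRAGD had values of 10.07, 10.16 and 9.67 with sorafenib, against 9.57, 9.52 and 9.67 in controls. Sorafenib replicates 1 and 2 were above all controls, sorafenib replicate 3 lay level with control replicate 3, and the difference of 0.38 ± 0.13 did not pass (adjusted p = 0.0629). Without sorafenib replicate 3 RRAGD differed by 0.53 and passed (adjusted p = 0.00622).

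RRAGC differed by -0.04 ± 0.07, with overlapping groups. The S6 kinase genes RPS6KB1 and RPS6KB2, whose products act directly below mTOR complex 1, differed by -0.02 ± 0.08 and 0.15 ± 0.08. RPS6KB2 values were 12.59, 12.71 and 12.76 with sorafenib and 12.46, 12.61 and 12.56 in controls, with sorafenib replicate 1 inside the control range. Its second probe differed by 0.08.

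Over the 30 members that did not pass, the 95% interval of the difference lay within 1.5-fold either way for 28 and within 1.2-fold for 12. The widest bound among them was 1.62-fold. In 7 of the 30 the groups did not overlap, a share near the 26.6% of all 6713 genes that did not pass.

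Several probes were tested for 9 members, with 11 probes beside the brightest. Of these 11, 10 differed in the same direction as the brightest probe of their gene, the exception being the dimmest AKT1 probe. The call differed between probes of 4 genes: GRB2, MAPK3, PRKAA1 and TSC1. Probes of a gene may read different transcripts, which was not tested.

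**Figure D3:**
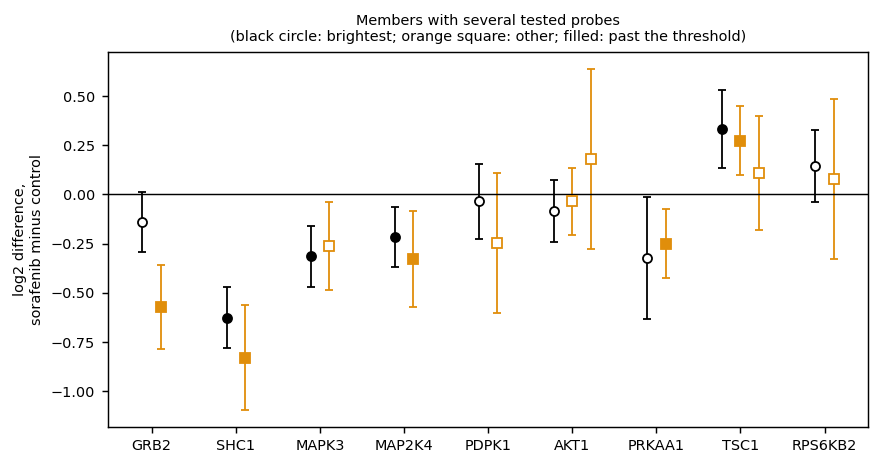
Log2 difference (sorafenib minus control, vertical axis) with its 95% interval for every tested probe of the 9 members with several. The brightest probe is a black circle, the others orange squares, and filled symbols passed the threshold; GRB2 shows the widest gap between probes of the members with a passing probe, -0.14 against -0.57.

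The strength of the 12 calls varied. SHC1, RRAS, IRS1 and DEPTOR passed under all 17 alternative analyses, and MAPK3 and AKT1S1 under 16. GAB2 passed under 15, TSC1 under 12, RHEB under 10, HRAS and MAP2K4 under 9 and STK11 under 6. No called member changed direction under any of the 17.

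**Figure D4:**
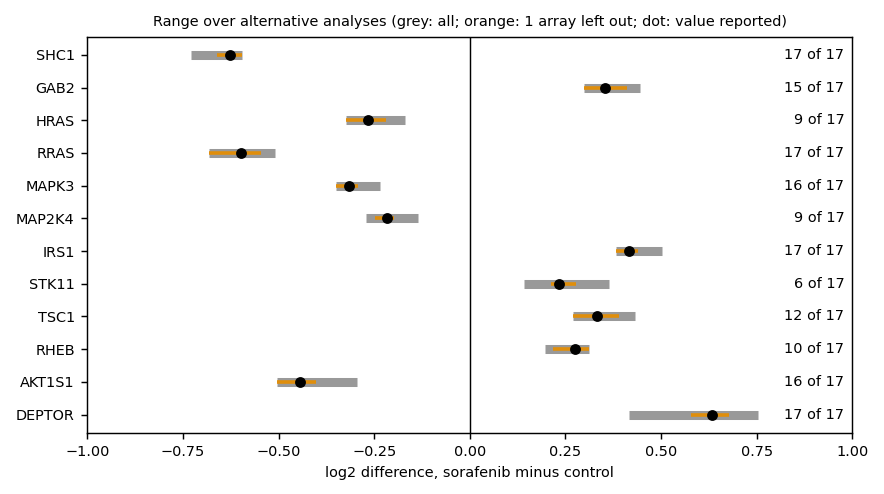
Log2 difference (sorafenib minus control, horizontal axis) of the 12 called members. The dot is the value reported, the grey bar the range over 17 alternative analyses, the orange bar the range when 1 array was left out, and the count at the right how many alternatives passed; SHC1, RRAS, IRS1 and DEPTOR passed in 17 of 17.

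A list of 108 further genes of the same pathways was examined beside the members, of which 86 were measured. Of these 86, 20 rose and 13 fell (38.4%, against 36.7% of all genes), and 4 of the called ones differed at least 2-fold. TRIB3, a pseudokinase that binds AKT, rose 3.61-fold, to 13.33 ± 0.08 with sorafenib against 11.48 ± 0.10 in controls (SD, n = 3 each; limma adjusted p = 4.4e-05). DDIT4, the stress-induced REDD1 that acts through the TSC complex, rose 2.92-fold, with 12.50 ± 0.08 against 10.95 ± 0.13 in controls (SD).

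SESN2 and SESN3 encode sestrins, which restrain mTOR complex 1, and they moved apart. SESN2 rose 2.71-fold, with 9.94 ± 0.15 with sorafenib and 8.51 ± 0.06 in controls (SD). SESN3 fell 2.16-fold, with 6.37 ± 0.18 with sorafenib and 7.48 ± 0.11 in controls (SD). EIF4EBP1, the translation repressor that mTOR complex 1 phosphorylates, rose 1.95-fold (0.96 ± 0.10), and GRB10, an adaptor that restrains insulin and IGF receptor signalling, rose 1.89-fold (0.92 ± 0.06). These 6 were the largest differences of the list, and each exceeded that of every member.

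By branch, the further genes divided as follows. In the mTOR branch 11 of 37 rose and 2 fell, in PI3K-AKT 4 of 17 rose and 5 fell, in RAS-RAF-MEK-ERK 3 of 14 rose and 3 fell, and in stress MAPK 2 of 18 rose and 3 fell. These counts stand beside 19.7% of all genes higher and 17.0% lower, and differences between branches were not tested here either.

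**Figure D5:**
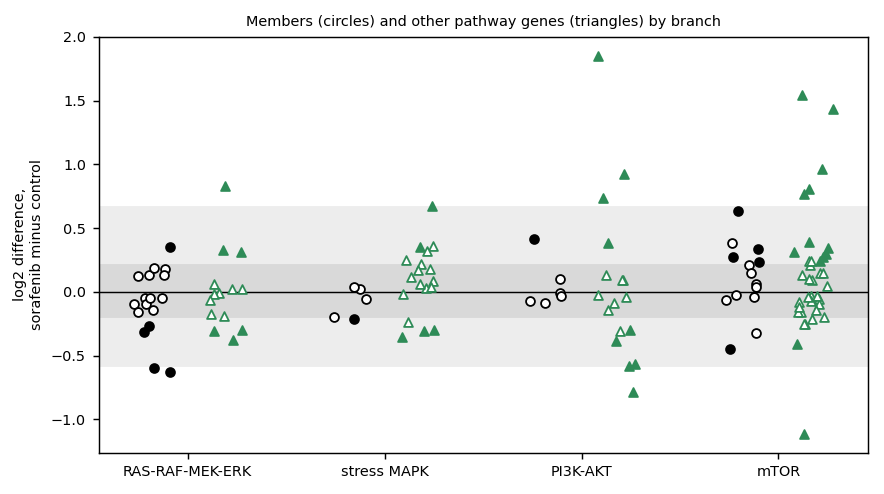
Log2 difference (sorafenib minus control, vertical axis) of the 42 members (circles) and the 86 further pathway genes (triangles) by branch, filled where called. The light and dark grey bands hold the 5th to 95th and the 25th to 75th percentile of all 10598 genes (-0.58 to 0.67 and -0.20 to 0.21); the triangles above 1.4 are TRIB3, DDIT4 and SESN2.

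The 250 bases upstream of the start were searched, on both strands, in the 34 measured members that have an entry in RefSeq's promoters (GRCh38.p14), because EGR1, a transcription factor induced by ERK, fell 4.49-fold on the same arrays (-2.17 ± 0.07, limma adjusted p = 1.9e-05). The letters GCGNGGGCG, which allow any base at the fourth position of the element read by EGR1, were found upstream of 12 of 34 members (35.3%), against 13.7% of 8657 measured genes with an entry and 8.25% of all 27305 promoters. They were upstream of 1 of 5 risen members, 1 of 4 fallen members and 10 of 25 members that did not pass. The letters are nearly all G and C, and the sets compared were not matched for base composition. A link of these counts to EGR1 was not tested. The called members RRAS, AKT1S1 and DEPTOR had no entry and were not searched. CACGTG, the core of the element read by TFEB and MYC relatives, was found in 3 of 34 (MAPK3, TSC2 and RRAGC), 8.82% against 9.35% of measured genes.

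TGATGNAA, a form of the element bound by ATF4, was found in 1 of 34 (TSC2, overlapping its CACGTG) against 1.48% of measured genes. TGANTCA, the AP-1 element, was found in 2 of 34 (MAP2K3 and RRAGC) against 3.47%. GTAAACA, a FOXO element, was found in 0 of 34 members and in 1.93% of measured genes. The stretches around the match are shown for the 3 called members that had one: CACGTG in MAPK3, and GCGNGGGCG in MAP2K4, which fell, and in IRS1, which rose. They run 5′ to 3′ on the strand of the gene, with the match in capitals.
MAPK3 (fell; chr16:30123325-30123380, minus strand): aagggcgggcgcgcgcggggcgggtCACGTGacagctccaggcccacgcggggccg
MAP2K4 (fell; chr17:12020720-12020778, plus strand): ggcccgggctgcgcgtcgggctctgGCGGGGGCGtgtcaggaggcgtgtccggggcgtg
IRS1 (rose; chr2:226799884-226799942, minus strand): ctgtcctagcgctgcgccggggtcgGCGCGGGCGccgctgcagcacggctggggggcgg
The match in MAPK3 begins 135 bases before the start, that in MAP2K4 132 bases and that in IRS1 97 bases. These are matches of letters, and binding was not measured.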

How the data were processed

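Total RNA of 6 Hep3B samples was labelled with a TargetAmp-Nano kit and hybridised to Illumina expression BeadChips, per the labels' protocols. Per the file headers, the deposited tables hold a non-normalized intensity with its detection p-value for 47321 probes on each array. The authors' deposited log2 values equalled the quantile-normalized log2 of these intensities (largest difference 5.0e-07) and served as an alternative. The scanner, its software and the slides are not given in the sources.

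The neqc method of limma 3.58.1 (R 4.3.3) corrected the background (estimated from the detection p-values, offset 16), quantile-normalized the arrays and took log2. The 16909 probes with a detection p under 0.01 on at least 3 of 6 arrays entered 1 two-sided limma fit (lmFit, eBayes) of sorafenib against control without a block, with Benjamini-Hochberg adjustment over all of them and a threshold of 0.05. Groups came from the sample titles. The platform annotation gave 30112 probes 1 symbol, 8 several and 17201 none; 30073 matched a current gene by Entrez ID. The brightest tested probe stood for its gene. The number of arrays limits the precision.

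The members, branches, further genes, markers and motifs were chosen with earlier results of these data known. Every member may be named, and of the further genes the 6 largest called differences with no overlap. Further genes named beside listed members of their branch were added after their values were seen. EGR1 was added after its value was seen. The fit was tested on simulated data, but the settings and outcome of that test are not given here. Alternatives were 3 background settings (none, offset 50, the deposited log2 values), centring on all or on tested probes, 2 other probe filters, the replicate block, 2 variance models, the median over probes and leaving out each array.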

Additional observations from a re-analysis of the deposited data

How the results depend on the processing

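The 3 arrays per group limit the precision. Of the 12 called members, 7 kept their call without the filter on dim probes (2 of them in the mTOR branch and none in the stress MAPK branch; HRAS, MAP2K4, STK11, TSC1 and RHEB were lost), and 20 further pathway genes were then called, against 33 in the analysis reported. Median centring over all probes gave 8 called members, of which 7 were among the 12, with 3 in the RAS-RAF-MEK-ERK branch and 0 in the stress MAPK branch. The stress MAPK branch had 2 called genes without background correction, with the deposited log2 values, with detection on all 6 arrays, with trend and robust eBayes and with the median over probes.

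Leaving out 1 array gave 6 to 11 called members, 3 to 5 in RAS-RAF-MEK-ERK, 0 to 1 in stress MAPK, 2 to 5 in mTOR, 1 in PI3K-AKT each time, and 23 to 28 further genes. The fewest members (6) came without sorafenib replicate 1, and 7 came without sorafenib replicate 2 and without control replicate 1. Same-numbered samples of the 2 groups deviated together only weakly (correlations 0.09, 0.10 and 0.25), and 4 of 6 samples correlated best with their own number. The replicate block gave 9 called members, all among the 12, and 0 in the stress MAPK branch; HRAS, MAP2K4 and STK11 were lost. No called member reversed under any alternative.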

Other observations

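RRAS and AKT1S1, both fallen, lie near each other on chromosome 19 in RefSeq's annotation (GRCh38.p14), with 12 protein-coding genes between them. Of these, 7 were measured: 4 were called lower with sorafenib, none higher and 3 did not pass, against 17.0% of all genes called lower. This stretch was examined after the falls of both genes had been seen, and no test was made.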
